A study of Mus musculus with 11 samples.

Results

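The genes described here encode 10 receptor chains for interleukins and colony-stimulating factors: Csf2rb, Il3ra, Csf2ra, Csf3r, Il6st, Il6ra, Il1r1, Il18r1, Il15ra and Il10rb. They were named by symbol, and all 10 had exactly 1 probe set assigned to a single gene, out of 22180 genes with such a probe set. Their levels were read on 11 arrays of hematopoietic stem cells (HSCs) that had been sorted by flow cytometry from mice. The 3 PBS arrays came from mice given phosphate-buffered saline as the control, and the 3 ATRA arrays from mice given all-trans retinoic acid, the active form of vitamin A. The 2 pIC arrays came from mice given polyIC, a synthetic double-stranded RNA that sets off an interferon response. The 3 RApIC arrays came from mice given ATRA and then polyIC. The sources used here do not give mouse strain, age, sorting gate, doses or times. They also do not say whether replicates were separate mice or pools, so the p-values cover only the spread among these arrays, part of which may be technical. Values are the authors' log2 intensities, and the small number of arrays limits their precision.

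Cytokine receptors of this kind have no enzymatic activity of their own. The chains for IL-3, GM-CSF, G-CSF, IL-6, IL-10 and IL-15 pass signals through bound Janus kinases to STAT factors, whereas the IL-1 and IL-18 receptors recruit the adaptor MyD88 and lead to NF-kB. Many act as pairs, in which a private chain binds the ligand and a shared chain signals. In blood formation they tie the output of stem and progenitor cells to infection and inflammation.

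HSC markers were read to describe the labelled cells. Of 14 listed, 13 were measured and 0 of these were among the dimmest 40% of genes, with Kit between 11.71 and 12.46 and Procr between 7.51 and 8.56 over the 11 arrays. Procr was 8.23 to 8.33 with PBS and 7.52 and 7.51 with pIC. Of 6 megakaryocyte markers 0 and of 6 erythroid markers 1 were among the dimmest 40%, so this reading does not set HSCs apart from those cells. RApIC replicate 2 lay apart from its group: on the first principal component of all genes (56% of the variance) it lay at -4.5, against 35.8 and 23.3 for RApIC replicates 1 and 3, 35.0 and 37.8 for the pIC arrays and -24.5 to -15.1 for the 6 arrays without polyIC. For comparisons that include RApIC, the main values are therefore also given without it. All 10 receptor genes were above the 40% of genes with the lowest mean level.

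The DNA just upstream of 3 genes is shown because the results turn on them: Il3ra, which rose with pIC, Il6st, which fell, and Csf2rb2, a near-identical copy of Csf2rb with a larger rise. Each line gives the 250 bases before the transcription start from RefSeq (GRCm38.p6), 5′ to 3′ on the gene's strand, and capitals mark a match to the STAT-binding GAS motif TTCNNNGAA. The table of promoters held 8 of the 10 genes. It lacked Csf2rb and Il10rb, whose upstream DNA was therefore not searched. The windows lie at chr14:14346245-14346494 on the + strand for Il3ra, chr13:112463820-112464069 on the + strand for Il6st and chr15:78305722-78305971 on the - strand for Csf2rb2.
Il3ra: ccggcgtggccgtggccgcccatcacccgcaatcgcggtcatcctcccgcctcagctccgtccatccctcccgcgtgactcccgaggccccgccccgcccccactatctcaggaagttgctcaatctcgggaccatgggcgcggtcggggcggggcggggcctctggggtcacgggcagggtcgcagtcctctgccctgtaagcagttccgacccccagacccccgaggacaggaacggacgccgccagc
Il6st: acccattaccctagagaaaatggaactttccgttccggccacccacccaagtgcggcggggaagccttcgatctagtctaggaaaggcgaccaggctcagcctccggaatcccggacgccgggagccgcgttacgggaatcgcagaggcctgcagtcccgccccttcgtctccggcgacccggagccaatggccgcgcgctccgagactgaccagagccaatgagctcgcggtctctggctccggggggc
Csf2rb2: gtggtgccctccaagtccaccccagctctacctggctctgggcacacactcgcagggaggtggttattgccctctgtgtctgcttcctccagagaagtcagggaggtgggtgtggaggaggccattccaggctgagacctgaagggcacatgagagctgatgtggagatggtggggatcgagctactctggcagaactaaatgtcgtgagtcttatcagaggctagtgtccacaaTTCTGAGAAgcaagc

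In windows that run from 250 bases before to 50 bases after the start, the GAS motif TTCNNNGAA, which reads alike on both strands, was found in Csf2rb2, at 15 bases before the start (TTCTGAGAA). Among the 8 receptor genes with a promoter it was found in Il18r1 alone, in 1 of its 3 windows, at 219 bases (TTCTGGGAA) and 152 bases (TTCCCAGAA) before that start. It occurred in 8.3% of all 32851 promoter windows. The interferon response element core, searched as 2 copies of GAAA spaced by 2 bases, was in none of these windows on either strand (3.44% of all promoters). Nor was the retinoic acid direct repeat, searched as 2 copies of AGGTCA spaced by 5 bases (0.00913% of all). The Il3ra and Il6st windows held none of the 3 motifs, which says only that these letters do not occur there.

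The first comparison was that of pIC with PBS, which addresses the response of HSCs to an interferon-inducing signal. The beta chain Csf2rb rose 4.16-fold, the IL-3 binding chain Il3ra rose 1.82-fold, and Il6st, the gp130 chain of the IL-6 family, fell to 0.756 times its PBS level. The other 7 receptor genes did not pass. The threshold was a limma p under 0.05 after Benjamini-Hochberg adjustment, in a model of all 11 arrays. Thus 3 of 10 passed (30%), against 14.7% of all 22180 genes, of which 2 rose (8.94% of all genes) and 1 fell (5.75%). The median difference was 0.21 log2 units over the 10 genes and 0.00 over all genes. The log2 values of each gene on each array are plotted by group.

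**Figure D1:**
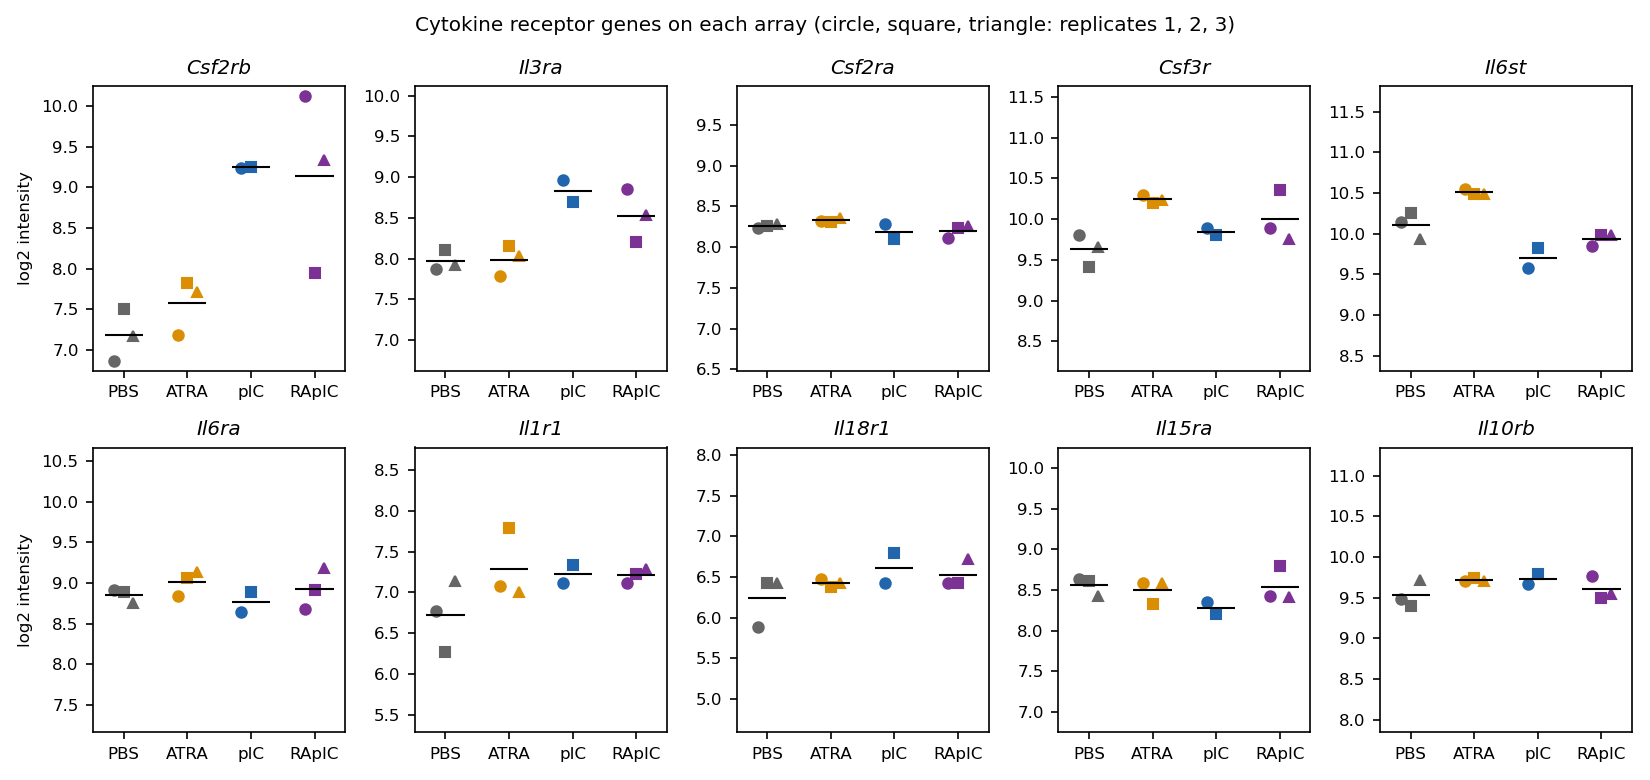
Log2 intensity (vertical axis, the same span of 3.5 log2 units in each panel) of the 10 receptor genes on the 3 PBS, 3 ATRA, 2 pIC and 3 RApIC arrays. Circles, squares and triangles are replicates 1, 2 and 3 and bars are group means. Csf2rb lies at 9.24 and 9.25 on the pIC arrays, above all PBS and ATRA arrays, and RApIC replicate 2 lies at 7.95, below the other RApIC arrays.

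Csf2rb encodes the common beta chain, which signals for the GM-CSF, IL-3 and IL-5 receptors. It measured 6.87, 7.51 and 7.18 on the PBS arrays, 9.24 and 9.25 with pIC, 7.19, 7.82 and 7.71 with ATRA, and 10.12, 7.95 and 9.34 on RApIC replicates 1, 2 and 3. The pIC and PBS arrays did not overlap, and the spread within RApIC (SD 1.10) exceeded that of every other group (SD 0.01 to 0.34). The rise with pIC was 2.06 ± 0.47 log2 units (SE, n = 2 and 3 arrays, limma adjusted p 0.0173). It missed the threshold without PBS replicate 1 (1.90, adjusted p 0.0552) and without pIC replicate 1 or 2 (2.06 and 2.05, adjusted p 0.0914 and 0.104).

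Csf2rb2 is a copy of the beta chain found in mice that serves IL-3 alone. It measured 8.46, 8.17 and 8.41 on the PBS arrays, 11.98 and 12.01 with pIC, 8.81, 9.11 and 8.89 with ATRA, and 12.06, 8.90 and 11.66 on RApIC replicates 1, 2 and 3. Its pIC arrays stood more than 2.5 log2 units above every PBS and ATRA array, and RApIC replicate 2 lay among the ATRA arrays. The rise with pIC was 3.65 ± 0.69 (12.6-fold, limma adjusted p 0.00765), and it missed the threshold without pIC replicate 1 or 2 (3.66 and 3.63, adjusted p 0.0564 and 0.0648). Whether the probe sets of Csf2rb and Csf2rb2 tell the 2 transcripts apart was not tested, so the values of each are uncertain.

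Il3ra encodes the alpha chain that binds IL-3 and pairs with either beta chain. It measured 7.87, 8.11 and 7.92 on the PBS arrays, 8.96 and 8.70 with pIC, 7.78, 8.15 and 8.03 with ATRA, and 8.85, 8.20 and 8.53 on RApIC replicates 1, 2 and 3. All pIC and RApIC arrays were above all arrays without polyIC, RApIC replicate 2 by the least. The rise with pIC was 0.86 ± 0.18 (limma adjusted p 0.0114) and missed the threshold without pIC replicate 1 or 2 (0.73 and 0.99, adjusted p 0.0965 and 0.0513).

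Csf2ra encodes the alpha chain that binds GM-CSF, a cytokine of myeloid growth. Its range over the 11 arrays was 8.10 to 8.36, with 8.28 and 8.10 on the pIC arrays. The difference from PBS was -0.07 ± 0.08 (limma adjusted p 0.685, 95% interval -0.25 to 0.12), so the interval leaves out a shift as large as those of Il3ra and Csf2rb.

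Il6st encodes gp130, the signalling chain shared by the receptors for IL-6, IL-11, LIF and oncostatin M. It measured 10.15, 10.25 and 9.93 on the PBS arrays, 10.55, 10.49 and 10.49 with ATRA, 9.58 and 9.83 with pIC, and 9.85, 9.99 and 9.98 on RApIC replicates 1, 2 and 3. The ATRA arrays were the highest and the pIC arrays the lowest, and neither group overlapped any other. The fall with pIC was -0.40 ± 0.11 (limma adjusted p 0.0336). It missed the threshold without PBS replicate 1 or 2 (-0.38 and -0.33, adjusted p 0.0845 and 0.0948), without pIC replicate 1 or 2 (-0.28 and -0.53, adjusted p 0.256 and 0.0636), and in a fit of the pIC and PBS arrays alone (adjusted p 0.101).

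Il6ra encodes the chain that binds IL-6 and then engages gp130. Its range was 8.65 to 9.18, and its pIC and PBS arrays overlapped, with a difference of -0.09 ± 0.15 (limma adjusted p 0.773). Csf3r, the receptor of the neutrophil growth factor G-CSF, measured 9.81, 9.41 and 9.66 with PBS, and 9.89 and 9.80 with pIC (0.22 ± 0.16, adjusted p 0.449).

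The receptors of the IL-1 family did not pass either. Il1r1, the signalling receptor for IL-1, measured 6.77, 6.27 and 7.14 with PBS, and 7.11 and 7.34 with pIC. Its difference was 0.50 ± 0.26 (limma adjusted p 0.251), with a 95% interval of -0.07 to 1.07 that also allows no change. Il18r1, which binds the interferon-gamma-inducing cytokine IL-18, measured 5.89, 6.42 and 6.43 with PBS and 6.43 and 6.79 with pIC (0.36 ± 0.17, adjusted p 0.200).

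Il15ra encodes the chain that captures IL-15 and presents it to neighbouring cells. It measured 8.63, 8.61 and 8.43 with PBS, and 8.35 and 8.21 with pIC. These arrays did not overlap, pIC being the lower, yet the difference of -0.28 ± 0.13 did not pass (limma adjusted p 0.215). Il10rb, the accessory chain shared by the receptors for IL-10, IL-22 and the lambda interferons, had 0.19 ± 0.11 (adjusted p 0.313). In all, the pIC and PBS arrays did not overlap for 4 of the 10 genes, against 43% of all genes.

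**Figure D2:**
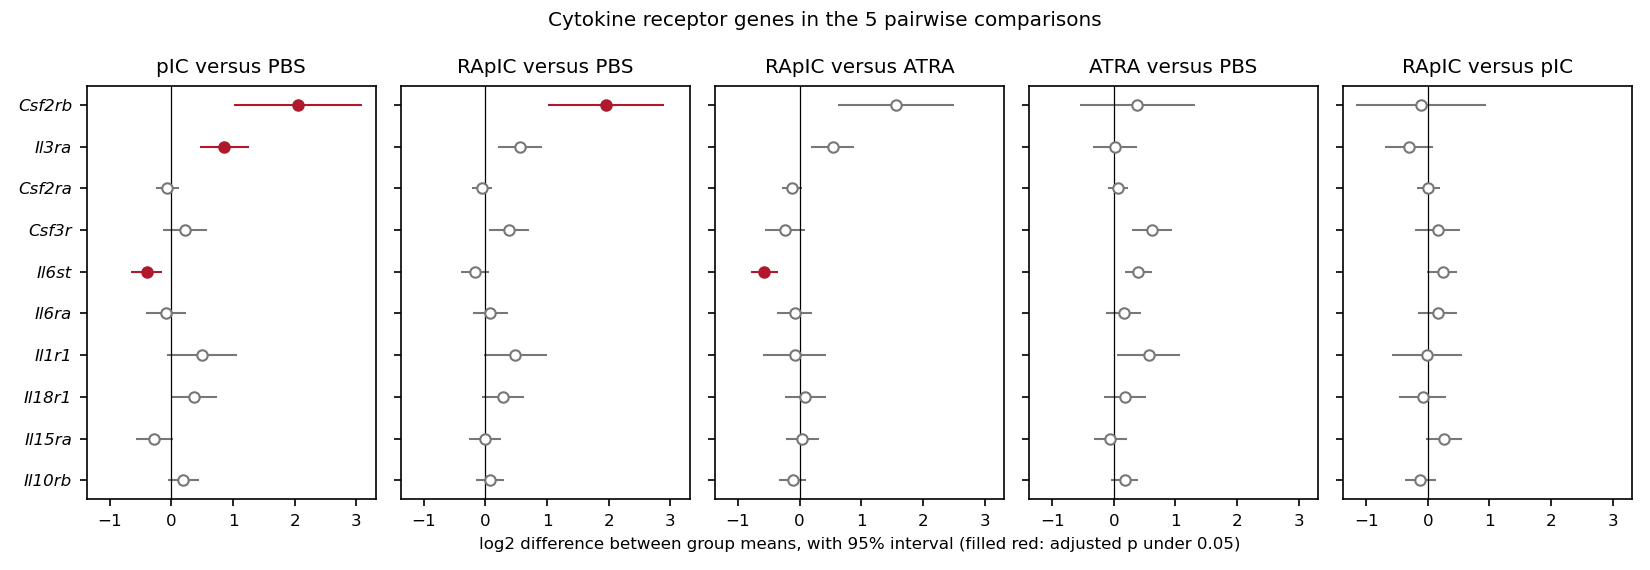
Log2 difference between group means (horizontal axis, with 95% intervals from limma) for the 10 receptor genes in the 5 pairwise comparisons. Filled red points passed an adjusted p under 0.05. Csf2rb, Il3ra and Il6st pass in pIC versus PBS, Csf2rb in RApIC versus PBS and Il6st in RApIC versus ATRA, and no gene passes in the other 2 panels.

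The second comparison, ATRA with PBS (n = 3 and 3), addresses what retinoic acid did without polyIC. No receptor gene was called (0 of 10, against 0.00451% of all genes by limma), while 3 of 10 had an unadjusted p under 0.05 (6.8% of all genes). These were Csf3r, Il6st and Il1r1, all with positive values. Csf3r measured 10.30, 10.20 and 10.23 on the ATRA arrays, all above the PBS maximum of 9.81, a difference of 0.62 ± 0.15 (1.54-fold, adjusted p 0.306, 95% interval 0.29 to 0.94). Il6st had 0.40 ± 0.10 (adjusted p 0.332) with ATRA arrays that did not overlap PBS. Il1r1 measured 7.08, 7.79 and 7.0 with ATRA, which overlapped PBS (0.57 ± 0.23, adjusted p 0.699).

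The differences of the remaining 7 genes with ATRA ran from -0.06 (Il15ra) to 0.38 (Csf2rb), at limma adjusted p 0.799 to 0.994. Csf2ra was the third gene, besides Csf3r and Il6st, whose ATRA and PBS arrays did not overlap, though by only 0.07 ± 0.07. For 12.7% of all genes these arrays did not overlap. Without RApIC replicate 2 the Csf3r difference had an adjusted p of 0.0696, still short of the threshold.

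Neutrophil markers were read beside Csf3r, since granulocytes carry this receptor. Their summed intensity was 9.93 to 10.03 (log2) on the PBS arrays and 11.67, 10.20 and 10.18 on ATRA replicates 1, 2 and 3. The neutrophil elastase gene Elane stood at 10.08 on ATRA replicate 1 and at 6.48 on both other ATRA arrays, whereas Csf3r was within 0.10 log2 units on all 3. Mpo and Ctsg were likewise high on ATRA replicate 1 alone (9.47 and 8.53). Prtn3, of the same list, was above every PBS array on all 3, at 9.09, 8.75 and 8.71 against 7.93 to 8.27. On RApIC replicates 1, 2 and 3 it measured 7.94, 8.43 and 8.23. The list was not uniform. Its gene Cxcr2 was below every PBS array on all 3 ATRA arrays, at 6.95, 7.35 and 7.19 against 7.36 to 7.43. Lcn2, also listed, measured 6.17, 5.96 and 6.06 with ATRA, within its PBS range of 5.96 to 6.25. How far Csf3r follows these genes was not tested. Of 14 neutrophil markers 0 were called with ATRA, where only 0.00451% of all genes were, so this count says little about neutrophil content.

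With polyIC after ATRA (RApIC against ATRA, n = 3 and 3), which addresses the polyIC response in animals that had ATRA first, Il6st fell and no other receptor gene passed. Its difference was -0.57 ± 0.10 log2 units, to 0.673 times the ATRA level (limma adjusted p 0.00933). The RApIC and ATRA arrays did not overlap. This call held under all 18 alternatives tried, at values of -0.60 to -0.53 and adjusted p 0.00127 to 0.0406. It was 1 of 10 genes called, against 7.21% of all genes (3.71% downward), and 4 of 10 had arrays that did not overlap, against 24.1% of all.

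Csf2rb had 1.57 ± 0.42 (limma adjusted p 0.0508) and Il3ra 0.54 ± 0.16 (adjusted p 0.0692) in that comparison, and neither passed although their arrays did not overlap. Both passed with the dimmest 40% of genes left out, where fewer genes are adjusted over (adjusted p 0.0335 and 0.0444). They also passed with array weights (adjusted p 0.00107 and 0.00653) and without RApIC replicate 2. The weights were 4.19 for RApIC replicate 3 and 0.366 for replicate 2, so that setting overlaps with leaving out RApIC replicate 2. Without that array Csf2rb rose by 2.16 ± 0.26 (adjusted p 0.000533) and Il3ra by 0.70 ± 0.14 (adjusted p 0.00927), while Csf3r fell by 0.42 ± 0.11 (adjusted p 0.0365). Csf3r measured 9.89, 10.36 and 9.76 on RApIC replicates 1, 2 and 3, so that replicate 2 was as high as the ATRA arrays and the other RApIC arrays as low as pIC. Csf2rb2 likewise had 1.93 ± 0.62 (adjusted p 0.0886), and 2.92 ± 0.14 without RApIC replicate 2 (adjusted p 2.60e-06). Without that array 4 of 10 receptor genes were called, against 14.5% of all genes.

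RApIC against PBS (n = 3 and 3) gave 1 call in 10, Csf2rb, against 3.11% of all genes (1.61% upward, 1.51% downward). Csf2rb rose by 1.95 ± 0.42 (3.86-fold, limma adjusted p 0.0376). The call was lost without any one of the other 10 arrays (1.46 to 2.11, adjusted p 0.0547 to 0.126), with the replicate number as a block (adjusted p 0.0654) and in a fit of the 2 groups alone (adjusted p 0.162), but not without RApIC replicate 2 (2.54 ± 0.26, adjusted p 0.000246). Il3ra had 0.56 ± 0.16 (adjusted p 0.0834), and passed without RApIC replicate 2 (0.72 ± 0.14, adjusted p 0.0103), where 2 of 10 genes and 11.1% of all genes were called. Il6st had -0.17 ± 0.10 (adjusted p 0.406), its RApIC arrays overlapping those of PBS. The arrays did not overlap for 2 of 10 receptor genes and 20.3% of all genes.

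RApIC and pIC were compared to ask whether ATRA given first altered the receptor levels under polyIC (n = 3 and 2). None of the 10 genes was called (0% of all genes were), and 0 had an unadjusted limma p under 0.05 (10.1% of all genes). Il6st had 0.24 ± 0.11 (95% interval -0.01 to 0.48) and Il15ra 0.26 ± 0.13 (-0.03 to 0.56), the 2 genes whose RApIC arrays all lay above pIC (27.2% of all genes did not overlap). Il15ra measured 8.42, 8.79 and 8.41 on RApIC replicates 1, 2 and 3. Csf2rb had -0.11 ± 0.47 with an interval of -1.16 to 0.94, which leaves room for a sizeable difference either way. Il3ra had -0.30 ± 0.18 (-0.69 to 0.09). Without RApIC replicate 2 the value of Csf2rb changed sign, to 0.48 ± 0.28. Il3ra then had -0.14 ± 0.16, Il6st 0.21 ± 0.12 and Il15ra 0.14 ± 0.11. Again 0 of 10 receptor genes and 0% of all genes were called.

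The interaction, which tests whether the pIC effect differed with and without ATRA, was called for 0 of 10 receptor genes and 0% of all genes by limma, with 0 of 10 at an unadjusted p under 0.05 (6.27% of all). For Csf3r it was -0.46 ± 0.22, with an interval of -0.95 to 0.03, and for Csf2rb -0.49 ± 0.64 (-1.90 to 0.91). For Il6st it was -0.17 ± 0.15 (-0.49 to 0.16). Without RApIC replicate 2 the interaction was -0.64 ± 0.16 for Csf3r (limma adjusted p 0.675), larger and with a smaller SE. It was then 0.10 ± 0.36 for Csf2rb and -0.19 ± 0.16 for Il6st, and 0 of 10 and 0% of all genes were called. The unadjusted count and the Csf3r interval above thus depend on that array.

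Since the interaction was not called, the mean of the pIC effects without and with ATRA was also taken, a comparison added after the values were seen. Csf2rb rose by 1.81 ± 0.32 (3.51-fold), Il3ra rose by 0.70 ± 0.12 (1.63-fold) and Il6st fell by 0.49 ± 0.07 (0.713 times), at limma adjusted p 0.00121 to 0.00244. These 3 of 10 calls, against 22.1% of all genes (12.2% upward and 9.89% downward), were the same under each of 17 alternatives, each array left out in turn included. The mean of the ATRA effects without and with pIC called 0 of 10 (0.0406% of all genes), with Il6st at 0.32 ± 0.07 (adjusted p 0.168) and Csf3r at 0.39 ± 0.11 (adjusted p 0.230), the 2 genes with an unadjusted p under 0.05 (10.7% of all). These averages use the same arrays as the pairwise comparisons and are not independent of them. Without RApIC replicate 2 the mean pIC effect was 2.11 ± 0.18 for Csf2rb, 0.78 ± 0.10 for Il3ra and -0.50 ± 0.08 for Il6st (26% of all genes called). The mean ATRA effect was then 0.31 ± 0.08 for Il6st and 0.30 ± 0.08 for Csf3r, neither called.

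Markers of other cells moved on the same arrays as Csf2rb and Csf2rb2. The log2 summed intensity of 15 measured T- and NK-cell markers was 10.17 to 10.56 on PBS, 10.21 to 10.57 on ATRA and 11.32 to 11.75 on pIC arrays, and 12.12, 10.61 and 11.92 on RApIC replicates 1, 2 and 3. For 14 monocyte, macrophage and dendritic cell markers it was 10.50 to 10.63, 10.64 to 10.80 and 11.54 to 11.58, and 11.78, 10.99 and 11.57 on RApIC replicates 1, 2 and 3. With pIC against PBS 2 of 15 T- and NK-cell and 3 of 14 myeloid markers rose, against 8.94% of all genes, and 0 fell.

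The myeloid rise was uneven. The macrophage pore protein Mpeg1 measured 5.18 to 5.36 with PBS, and 9.78 and 9.48 with pIC. The defining receptor of the lineage, Csf1r, stayed within 5.96 to 6.36 on all 11 arrays, and the macrophage antigen Adgre1 within 5.0 to 5.49. Lyz2, of the same list, was lower with pIC, at 7.88 and 7.69 against 8.32 to 8.65 with PBS, though not called. The T-cell receptor chain Cd3e measured 6.33 to 6.82 with PBS, 7.5 and 8.17 with pIC, and 8.67, 6.25 and 8.33 on RApIC replicates 1, 2 and 3. The T- and NK-cell list was uneven too. Its gene Klrb1c measured 5.35 and 4.98 with pIC against 5.31 to 5.65 with PBS, and Cd8a 4.92 and 5.22 against 4.87 to 4.92. In the mean of the pIC effects, 5 of its 15 genes rose and 1 fell (12.2% and 9.89% of all genes). Of 6 erythroid markers 3 rose with pIC (8.94% of all genes), Epor among them. Of 13 HSC markers 6 fell (5.75% of all genes), Kit among them. The summed HSC level was 13.85 to 13.93 with PBS and 13.32 on both pIC arrays. Epor and Kit are counted again below among other receptors, so the marker and receptor counts share genes. The part of these shifts in the receptor results was not tested, and in sorted bulk RNA a change in the mix of cells cannot be told apart from a change per cell.

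**Figure D3:**
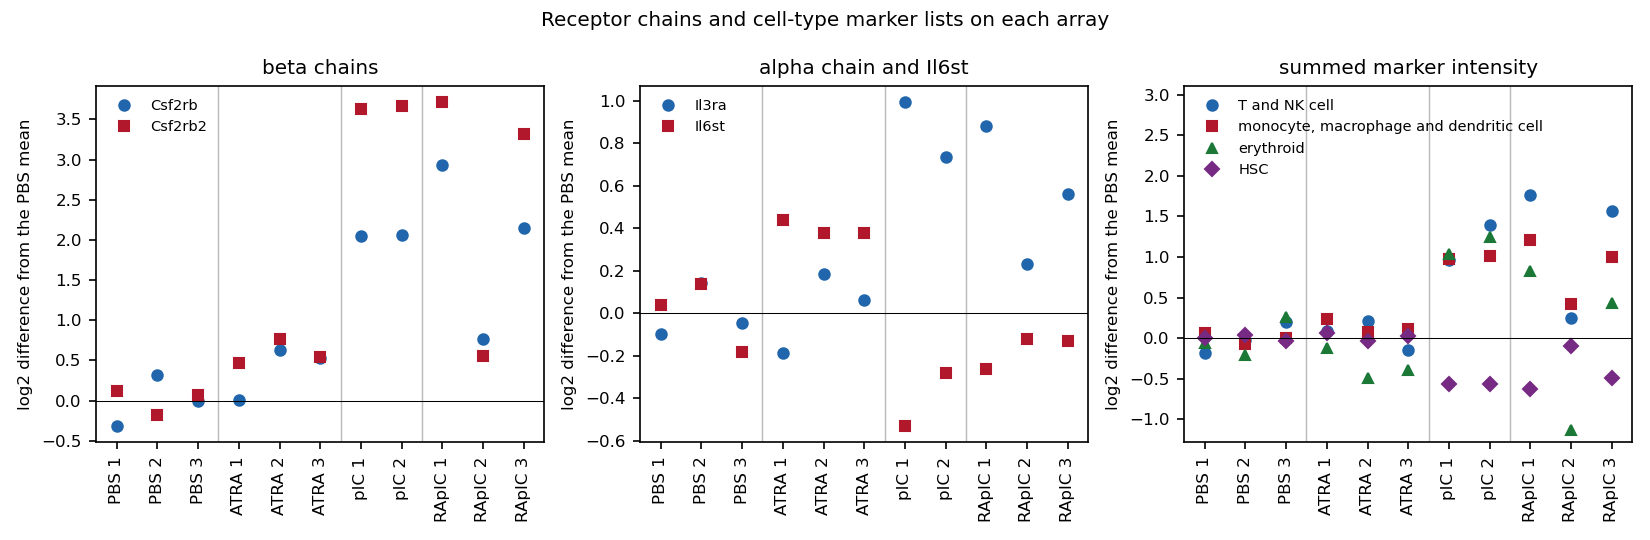
Log2 difference from the PBS mean (vertical axis) on each of the 11 arrays for Csf2rb and Csf2rb2 (left), Il3ra and Il6st (middle) and the summed intensity of 4 marker lists (right). Grey lines part the groups. On RApIC replicate 2 the chains Csf2rb and Csf2rb2 and the T- and NK-cell and myeloid sums lie near the arrays without polyIC, while Il6st lies with the other RApIC arrays.

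Genes that work with these receptors were counted in 4 lists. Of 15 ligands of the receptors 4 rose with pIC and 0 fell (median 0.01), where 8.94% of all genes rose and 5.75% fell. They were Il6 (0.63 ± 0.11), Lif (0.47 ± 0.10), Osm (1.02 ± 0.24) and Il1b (1.11 ± 0.28), at limma adjusted p 0.00561 to 0.0233. The first 3 signal through gp130, whose own mRNA fell. Il6 measured 3.32 to 3.52 on PBS arrays, below the 6.03 that bounded the dimmest 40% of genes, and 4.15 and 3.98 on pIC arrays. Il1b also lay near or below 6.03 without polyIC, at 6.15, 5.72 and 5.81 on PBS and 5.35, 5.83 and 5.48 on ATRA arrays. Without pIC replicate 1 all 4 missed the threshold (adjusted p 0.0588 to 0.113), as did Lif, Osm and Il1b without pIC replicate 2 (0.0779 to 0.125), Osm without PBS replicate 2 (0.0638) and Il1b without PBS replicate 2 or 3 (0.072 and 0.059). With RApIC against ATRA, where 7.21% of all genes were called, 2 of 15 rose, Il6 (0.57 ± 0.10, adjusted p 0.00878) and Il1b (1.2 ± 0.25, adjusted p 0.0177). Il1b missed the threshold there without ATRA replicate 1 or 3 or RApIC replicate 3 (0.0603 to 0.0694).

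Of 14 measured partner chains, decoys and soluble antagonists 2 rose with pIC and 0 fell, Csf2rb2 and Il18bp (median 0.14), a share near the 14.7% of all genes called. Il18bp, a secreted protein that neutralises IL-18, measured 8.91, 8.60 and 8.56 on PBS, 11.01 and 11.14 on pIC, and 11.08, 9.37 and 10.30 on RApIC replicates 1, 2 and 3. It rose by 2.38 ± 0.35 (limma adjusted p 0.00315), while Il18r1 did not pass. The beta chain Il2rb, which IL-15 and IL-2 receptors share, had 2.26 ± 0.77 with pIC (adjusted p 0.0756) and the IL-1 decoy receptor Il1r2 -0.28 ± 0.18 (adjusted p 0.374). Il2rb measured 7.69 and 9.17 on the pIC arrays and passed without RApIC replicate 2 (adjusted p 0.00151). With RApIC against ATRA Il18bp rose by 1.34 ± 0.32 (adjusted p 0.0307), a call lost without any ATRA array, RApIC replicate 1 or RApIC replicate 3 (adjusted p 0.0594 at the lowest). Without RApIC replicate 2, 4 of the 14 rose with pIC (18.3% of all genes called), and with RApIC against ATRA 3 rose in place of 1 (14.5% of all genes called).

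Among 22 other interleukin and growth factor receptors 4 rose with pIC and 1 fell (median 0.05), against 8.94% and 5.75% of all genes. Il12rb1, a chain of the IL-12 and IL-23 receptors, rose by 1.07 ± 0.19, Il17ra, a receptor of IL-17, by 0.55 ± 0.10, Il31ra, a gp130-like chain, by 1.35 ± 0.31 and the erythropoietin receptor Epor by 0.98 ± 0.24. Kit, the receptor of stem cell factor, fell by 0.61 ± 0.14. The adjusted p of these 5 by limma ran from 0.00624 to 0.0212. Il12rb1 and Il17ra missed the threshold without pIC replicate 1 (0.0564 and 0.0614), Kit without pIC replicate 1 or 2 (0.0787 and 0.107), and Il31ra without PBS replicate 1 or 2 or either pIC array (0.0503 to 0.144). Epor was lost without any PBS or pIC array (0.0505 to 0.127). With RApIC against ATRA 0 of 22 passed, and without RApIC replicate 2, 6 rose and 4 fell, where 14.5% of all genes were called.

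Of 27 signalling and feedback genes 7 rose with pIC and 3 fell (median 0.04), which is 10 of 27 against 14.7% of all genes. Myd88, the adaptor of the IL-1 and IL-18 receptors, rose by 0.96 ± 0.15 and Irak3, a brake on the same pathway, fell by 1.06 ± 0.21. Socs1, a suppressor of Janus kinase signalling, rose by 1.02 ± 0.22 and the survival gene Bcl2l1 by 0.49 ± 0.09. Jak1, a kinase bound to gp130, fell by 0.32 ± 0.09. The limma adjusted p of these 5 ran from 0.004 to 0.0389. Jak2 and Stat3, of the same list, were higher on both pIC arrays than on every PBS array. Jak2 measured 10.15 and 10.20 against 9.78 to 9.93, and Stat3 11.64 and 11.65 against 11.30 to 11.40. Socs1, Irak3 and Bcl2l1 missed the threshold without pIC replicate 1 or 2 (0.0603 to 0.0983), and Jak1 without any of 9 single arrays (0.0512 to 0.206). With RApIC against ATRA Bcl2l1 (0.53 ± 0.08) and the phosphatase Ptpn11 (0.55 ± 0.12) rose, and Irak3 (-0.78 ± 0.19) and Socs2 (-0.97 ± 0.25), a feedback suppressor, fell. Of these Bcl2l1 passed without each array in turn, while Ptpn11 was lost without 4 single arrays, Socs2 without 8 and Irak3 without 10 (adjusted p 0.0508 to 0.134). The count of 2 up and 2 down became 5 and 3 without RApIC replicate 2, where 14.5% of all genes were called.

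**Figure D4:**
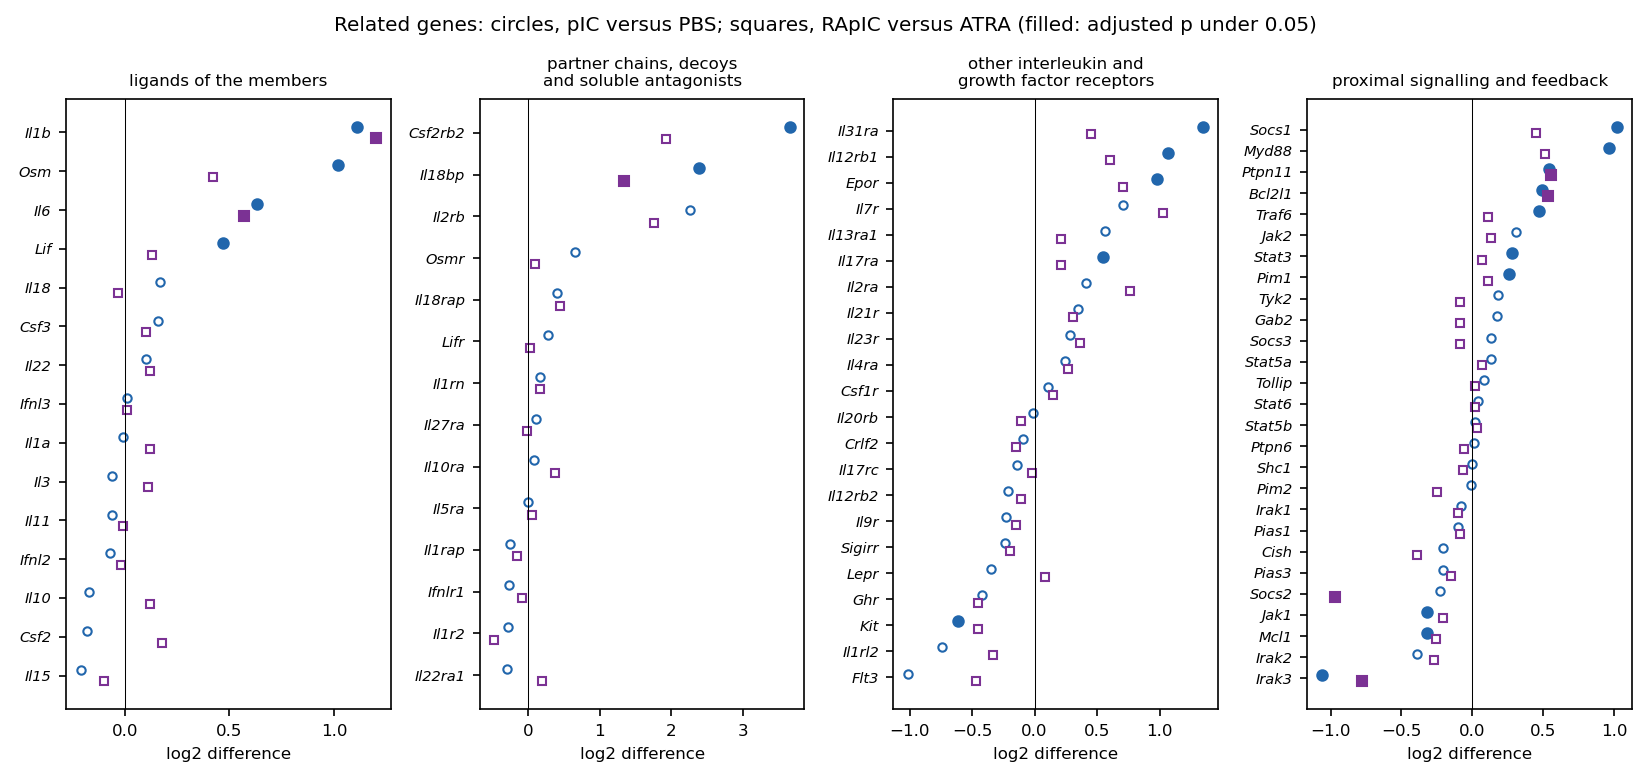
Log2 difference (horizontal axis) of each measured gene in the 4 lists of related genes, with circles for pIC versus PBS and squares for RApIC versus ATRA. Filled marks passed an adjusted p under 0.05. The largest value is that of Csf2rb2 with pIC at 3.65, and Il6, Il1b, Il18bp, Bcl2l1, Ptpn11 and Irak3 are filled in both comparisons.

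No gene of the 4 lists was called with ATRA against PBS, nor with RApIC against pIC, by limma. The smallest adjusted p with ATRA was 0.243, for the survival kinase Pim1 (0.30 ± 0.07), followed by Bcl2l1 (-0.36 ± 0.08, adjusted p 0.306). With RApIC against PBS the calls were Il6 (0.58 ± 0.10), Il18bp (1.56 ± 0.32), Il12rb1 (0.79 ± 0.17) and Pim1 (0.41 ± 0.07), at adjusted p 0.0119 to 0.0369, and each was lost without at least 2 of the single arrays (adjusted p up to 0.126). Without RApIC replicate 2 the rises there numbered 2 for ligands, 5 for partner chains, 6 for other receptors and 4 for signalling genes, and the falls 0, 0, 4 and 2, where 11.1% of all genes were called.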

How the data were processed

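Total RNA was biotin-labelled and hybridised to Affymetrix arrays, per the labels' protocols. The authors deposited log2 intensities of 41345 probe sets for 11 samples. The submitters' processing notes name oligo 1.36.1, RMA and limma 3.28.20, with no roles, and array medians were 6.19 to 6.28. Each probe set was named from the platform's annotation (23521 with 1 gene, 1814 with several, 16010 unlisted), and the brightest per gene was kept (22180 genes).

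limma 3.58.1 (R 4.3.3) was fitted with 4 group means, all 11 arrays, 7 residual degrees of freedom (10.72 after moderation), two-sided tests and Benjamini-Hochberg adjustment over all genes, called under 0.05. The fit was tested on simulated data. The rule named every receptor gene in every comparison and up to 4 genes per related list, of which the text leaves out some, plus Csf2rb2 and Il1r2. Jak1, Jak2, Stat3 and the single marker genes were named after their values were seen. The members and lists were chosen with earlier results of these data known. Alternatives were cyclic loess scaling, the dimmest 40% left out, a replicate block, array weights, mean probe sets, a trended robust prior, only the groups compared, and each array left out. The 2 averaged comparisons and the emphasis on RApIC replicate 2 were added after seeing the data. Same-numbered arrays of different groups did not deviate together. Protein sequences were not used here. Figures used Python 3.11.15 with matplotlib 3.10.9.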

Additional observations from a re-analysis of the deposited data

How the results depend on the processing

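Over 1410 combinations of receptor gene, comparison and alternative, 1377 kept their side of the threshold. A call was lost in 22 and gained in 11, and a called value reversed in 0. Most combinations had no call in the main fit to lose, so the 1377 says little about how firm the calls are. All 22 losses were of calls in pIC versus PBS and RApIC versus PBS. Each receptor gene had 1 probe set, so taking the mean of probe sets left its values unchanged. Leaving out 1 array at a time gave 0 to 3 receptor genes for pIC versus PBS, 1 to 4 for RApIC versus ATRA, 0 to 2 for RApIC versus PBS, and 0 for ATRA versus PBS, RApIC versus pIC and the interaction. With 1 array left out, the averaged comparisons always gave 3 for pIC and 0 for ATRA. RApIC versus ATRA gave 3 calls with the dimmest 40% left out, where fewer genes were tested, and 4 with array weights. RApIC versus PBS gave 2 with array weights and 0 in a fit of only those groups, which has fewer arrays. Array weights also gave 1 for the averaged ATRA comparison (Il6st, adjusted p 0.0408). The weights were 0.647, 0.366 and 4.19 for RApIC replicates 1, 2 and 3, against 0.587 to 1.51 for the other arrays. The weighted RApIC values thus rest mostly on replicate 3. The cause of the changes with array weights was not tested.

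With the replicate number as a block, RApIC versus PBS gave 0 calls instead of 1 and no other count of receptor genes changed. The numbers did not pair the arrays: the 15 same-numbered pairs correlated at -0.11 to 0.10, and 0 of 11 arrays correlated best with its own number.

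Over all genes the calls ranged from 664 to 4204 for pIC versus PBS (3260 in the model of all arrays), 305 to 4588 for RApIC versus ATRA (1599), 70 to 3127 for RApIC versus PBS (690), 1 to 28 for ATRA versus PBS (1), 0 to 112 for RApIC versus pIC (0), 0 to 1 for the interaction (0) and 1 to 148 for the averaged ATRA comparison (9). The lone pIC array left by leaving out the other is assumed to vary like the other groups.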

Other observations

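The genes whose log2 values over the 11 arrays were most like those of Csf2rb, the receptor gene with the widest range of group means (2.06), were AW112010 (Pearson r 0.984), Slc35d3 (0.981) and Phf11b (0.979). For Il3ra, with the next widest range (0.86), they were Tbcb (0.979), Grpel1 (0.978) and Ms4a6d (0.976). Arrays in these correlations share groups and RApIC replicate 2, so they describe the 11 arrays and carry no test. Among the receptor genes themselves the values ran from -0.76 (Il3ra with Il6st) to 0.95 (Csf2rb with Il3ra, both chains of the IL-3 receptor) over the 11 arrays.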
